A study of Mus musculus with 4 samples.

Results

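Complex I of the respiratory chain was followed through the genes whose symbol starts with *Nduf*, the prefix for its nuclear-encoded subunits and assembly factors. Pseudogene symbols ending in -ps were to be left out, and none occurred. The rule found 45 genes among the 17710 features with a symbol, out of 19645 features in each library. Of these, 36 encode subunits of complex I, 7 encode assembly factors, and 2 are *Ndufa4*, now counted as a subunit of complex IV, and its paralog *Ndufa4l2*. The study compared 2 libraries of wild-type (WT) mouse embryonic stem cells (ESCs) with 2 libraries of *Bmal1* knockout (KO) ESCs made by CRISPR-Cas9. BMAL1, encoded by *Arntl*, is a transcription factor of the circadian clock. ESCs are pluripotent cells from the inner cell mass of the blastocyst, and both groups were grown undifferentiated on gelatin in serum medium with LIF, the cytokine that sustains pluripotency. The KO cells are 1 clone with a frameshift deletion in *Arntl*, so the loss of BMAL1 cannot be told apart from other differences between that clone and the WT line.

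Complex I takes electrons from NADH, passes them along a chain of iron-sulphur clusters to ubiquinone, and pumps protons across the inner mitochondrial membrane. It has the shape of an L. In the arm that reaches into the matrix, the N module oxidizes NADH and the Q module reduces ubiquinone. The membrane arm holds the proton pumps, with a proximal part next to the Q module and a distal part at the far end. Core subunits do the chemistry, accessory subunits surround and stabilize them, and assembly factors help to build the complex without staying in it. Pluripotent cells are known for relying strongly on glycolysis, and the comparison asks whether the transcripts of complex I differed in cells without BMAL1.

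The values are FPKM, fragments counted relative to transcript length and to all mapped fragments. They carry no read numbers. How deeply each library was sequenced is therefore unknown, and the precision rests on the spread between replicates. Features without a symbol took 26.8% and 37.3% of the summed FPKM of the WT libraries, but 19.0% and 18.1% of that of the KO libraries, so the scale of the other genes can shift between genotypes. All 10 ESC markers checked, such as *Pou5f1* and *Nanog*, were expressed, at 40.9 to 3045 FPKM. Their sum was 7016 to 7198 FPKM in WT and 6435 to 6864 in KO, so both KO libraries lay below both WT libraries. With values up to 3045 FPKM, this sum is weighted to the highest genes and does not give the direction of each marker. Of 8 fibroblast markers, which would point to feeder cells, 6 had values, none above 2.73 FPKM, and their sum was 1.91 to 2.24 in WT and 2.66 to 3.29 in KO. The 8 primitive endoderm markers summed to 1.38 to 1.496 FPKM in WT and 2.09 to 2.24 in KO. The 5 trophoblast markers with values summed to 5.35 to 6.44 FPKM in WT and 10.1 to 11.5 in KO. Of these 5, 3 had a mean under 0.5 FPKM, and a single value reached 9.36 FPKM. Means were also under 0.5 FPKM for 5 of the 6 fibroblast markers and 7 of the 8 endoderm markers. These sums thus rest on few genes and do not describe the lists as a whole. No marker with values was at 0 in all 4 libraries. The part of these markers in the results below was not tested. *Arntl* itself had 6.05 and 6.29 FPKM in WT against 5.95 and 5.92 in KO. A short deletion need not lower the level of its transcript, so this value does not check the genotype. *Ddx3y*, a gene of the Y chromosome, had 0.235 and 0.403 FPKM in WT against 16.4 and 20.6 in KO, so the groups also differed in transcripts of the Y chromosome.

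Subunit transcripts were abundant in both genotypes, and those of the 7 assembly factors found by the naming rule were mostly scarce. In WT cells the median subunit had a mean of 156.7 FPKM and the median assembly factor 12.6 FPKM, a ratio of 12.5. The subunits spanned a 20.1-fold range in WT and a 21.8-fold range in KO, although their proteins are needed in nearly equal numbers. The order of the 36 subunits by level was nearly the same in both genotypes, with a Spearman's rho of 0.981 across genes that share the same libraries. *Ndufa3*, a small membrane arm subunit, was the most abundant subunit, at 588 and 528 FPKM in WT against 729 and 561 in KO. *Ndufs6*, a zinc-binding subunit of the N module, came next, at 406 and 438 FPKM in WT against 427 and 410.1 in KO. *Ndufa11*, a membrane arm subunit, was the lowest of the subunits, at 29.2 and 26.3 FPKM in WT against 32.2 and 27.1 in KO. In each of these 3 genes the range of the KO libraries overlapped that of the WT libraries. Of the 7 assembly factors, 6 lay below the lowest subunit. The exception was *Ndufaf2*, whose mean in WT was higher than that of 3 subunits. This order holds for the factors named by the rule. The 12 factors under another symbol, treated below, had a median WT mean of 20.8 FPKM. The highest of them, *Dmac1*, had 82.8 FPKM, also above the lowest subunits.

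**Figure D1:**
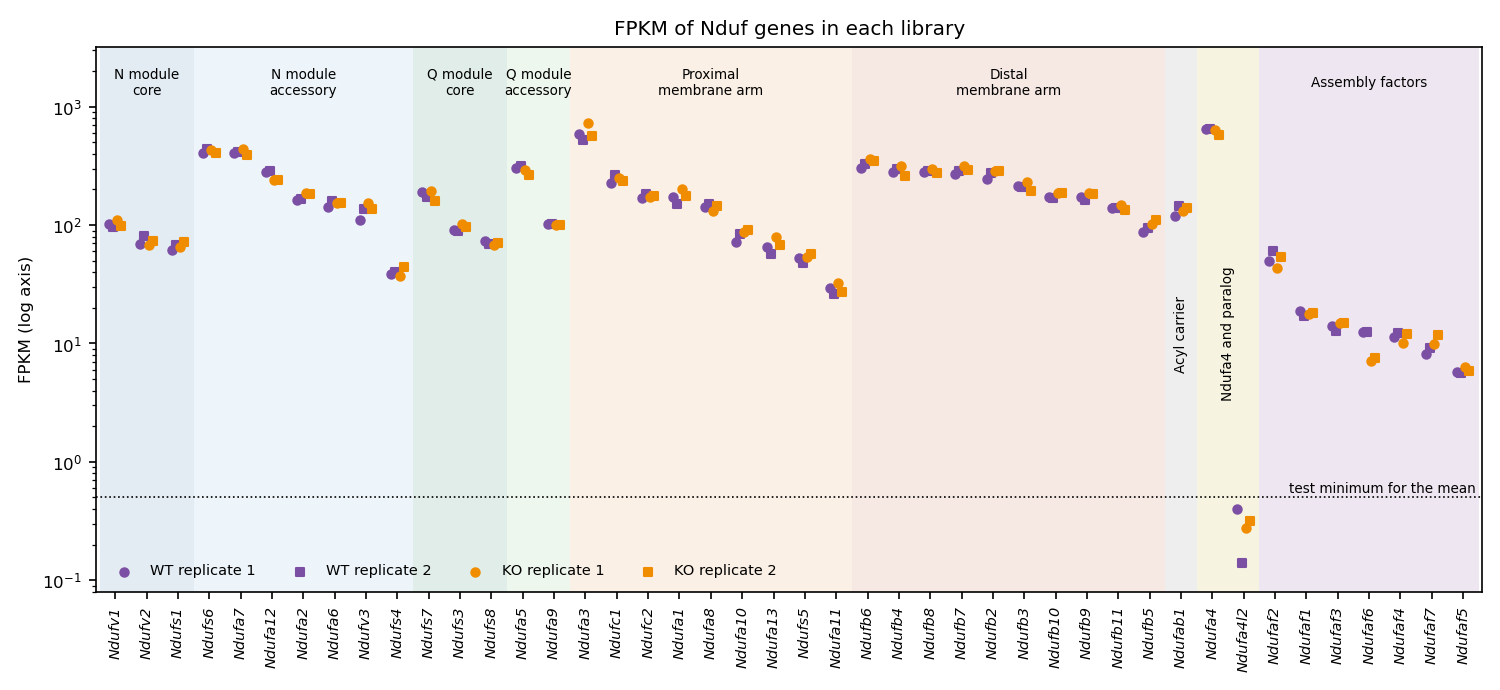
FPKM on a log axis of 44 of the 45 *Nduf* genes in each of the 4 libraries, grouped by their place in complex I and ordered by the WT mean. The points of a gene lie close together compared with the 20.1-fold range between subunits in WT. *Ndufaf6* is the assembly factor whose KO points sit clearly below its WT points. *Ndufa4l2* lies below the dotted line at 0.5, the minimum mean for testing.

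Of the 44 *Nduf* genes that could be tested, 1 differed past the threshold between WT and KO cells. It was the assembly factor *Ndufaf6*, which fell to 0.590 times its WT level, while no subunit passed in either direction. Each gene was compared on the log2 scale after adding 0.1 to its FPKM, with limma's moderated test fitted on all 12990 features with a mean of at least 0.5 FPKM and Benjamini-Hochberg adjustment over them. A gene passed at an adjusted p under 0.05. *Ndufa4l2* was too low to be tested. None was higher in KO at that threshold, against 6.85% of all tested features, and 1 was lower, *Ndufaf6*, against 5.6% of all tested features. At an unadjusted p under 0.05, 3 genes were higher and 2 lower, against 14.1% and 15.5% of all tested features. No gene of the set also differed more than 2-fold, beside 2.72% of all tested features that did so upward and 1.42% downward. The 95% intervals of all 44 lay within 2-fold in either direction, and those of 42 lay within 1.5-fold. The median log2 difference of the 44 was 0.05, beside -0.02 over all tested features, and 29 of the 44 were above 0, beside 46.8% of all tested features. That number was 36 after quantile normalization or after scaling each library to its features with a symbol. The median over all tested features was then -0.01 and 0.05, respectively. Their share above 0 is not given for these settings. A difference of less than 0.25 on the log2 scale was seen in 41 of the 44, beside 59.3% of all tested features. The median WT mean was 135 FPKM for the 44 and 8.91 FPKM for all tested features, so these shares come from genes of unlike level. In 17 genes both KO values exceeded both WT values and in 5 both lay under them, where the shares over all tested features are 27% and 31.7%. With 2 libraries against 2, an exact permutation test (two-sided) of any 1 gene reaches no lower than p = 0.333, whereas limma borrows the spread from all features. The methods call the replicates biological but name no separate cultures, so the p-values measure the spread between these libraries, which may be technical. Replicate number was not a term of this fit. With it as a block, 7 subunits were higher and 1 lower at the same threshold, beside 13.9% and 17.3% of all tested features.

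**Figure D2:**
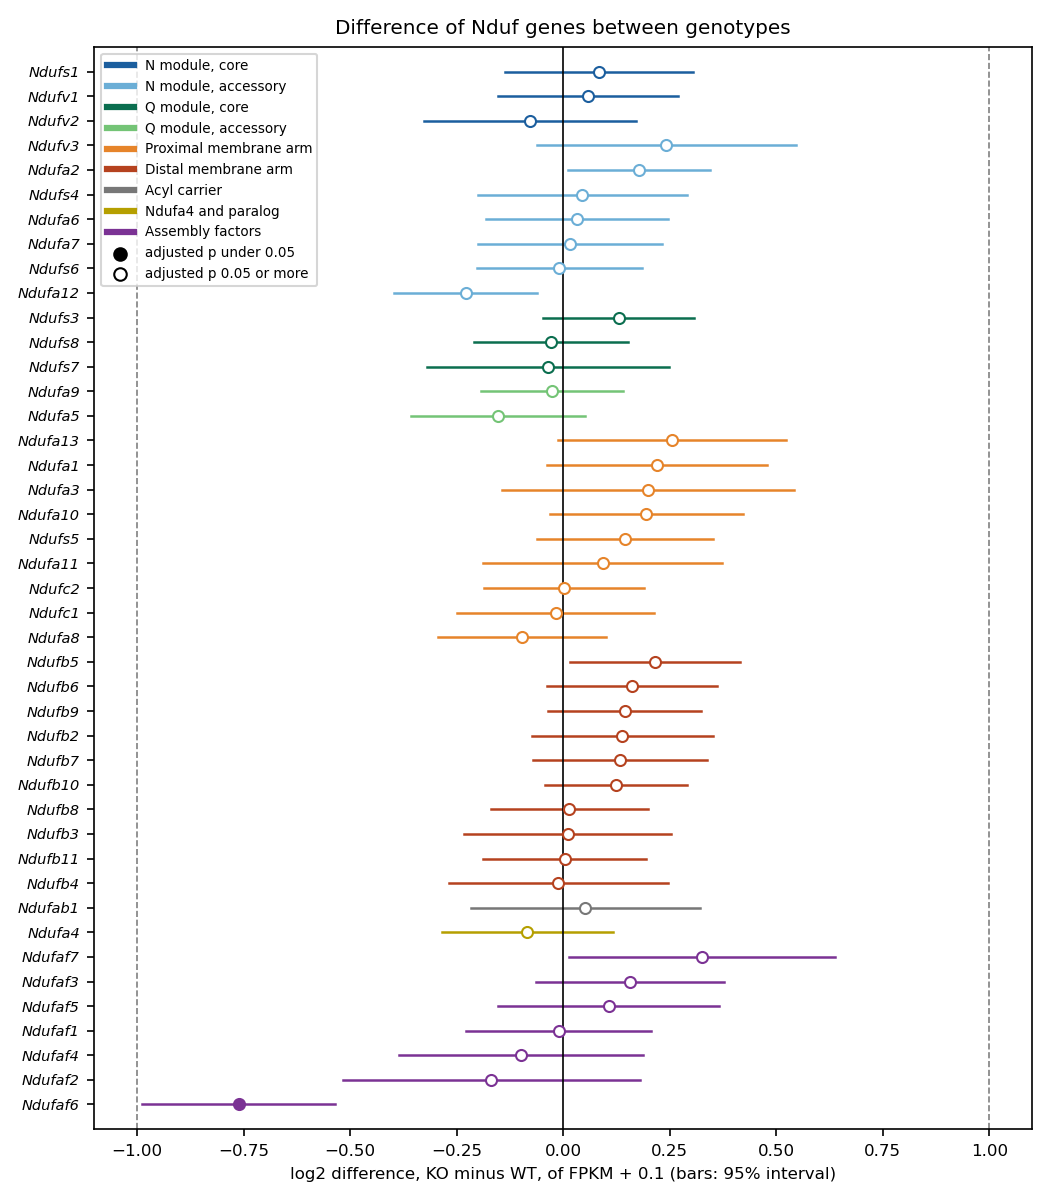
Log2 difference of 43 of the 44 tested *Nduf* genes, KO minus WT, with its 95% interval from limma, coloured by place in the complex. Filled points passed an adjusted p of 0.05. *Ndufaf6* at -0.76 is the sole filled point, and every interval stays between the dashed lines at a 2-fold difference.

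The assembly factor *Ndufaf6* fell in KO cells. NDUFAF6 is a mitochondrial protein with similarity to the phytoene synthases that is needed early in the building of complex I. It had 12.6 and 12.6 FPKM in WT against 7.18 and 7.56 in KO. Both KO libraries lay well below both WT libraries, which were nearly equal. The means were 12.6 ± 0.00877 for WT and 7.37 ± 0.274 for KO (SD, n = 2), a log2 difference of -0.76 (standard error 0.09, adjusted p = 0.00821 from limma). KO cells thus had 0.590 times the WT level, with a 95% interval of 0.504 to 0.690. The gene (ENSMUSG00000050323.14, chromosome 4, minus strand, from 11051045 to 11076205, GRCm38) has a feature that covers nearly the same bases and shares its coordinates with no other feature.

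The other 6 assembly factors named *Ndufaf* did not pass. *Ndufaf7*, whose product is a protein methyltransferase of the mitochondrial matrix, had 8.14 and 9.11 FPKM in WT against 9.87 and 11.9 in KO. Both KO values exceeded both WT values, and the difference of 0.32 (95% interval 0.01 to 0.64, adjusted p = 0.157 from limma) was the highest of all 44 genes. *Ndufaf2*, a chaperone that holds the place of NDUFA12 until the N module is attached, had 49.4 and 60.1 FPKM in WT against 43.5 and 53.9 in KO. Its replicates differed more than its groups did, with a log2 difference of -0.17 (95% interval -0.52 to 0.18). *Ndufaf3* and *Ndufaf4* encode partners that build the Q module. *Ndufaf3* had 13.9 and 12.8 FPKM in WT against 15.0 and 14.8 in KO, with both KO libraries slightly higher. *Ndufaf4* had 11.3 and 12.4 FPKM in WT against 10.2 and 11.98 in KO, with overlapping groups. *Ndufaf5*, whose product hydroxylates the core subunit NDUFS7, had 5.71 and 5.60 FPKM in WT against 6.31 and 5.89 in KO, with both KO libraries higher. *Ndufaf1*, part of the assembly complex of the membrane arm known as MCIA, had 18.9 and 17.2 FPKM in WT against 17.8 and 17.9 in KO, with overlapping groups. The log2 differences of these 4 genes were 0.16, -0.10, 0.11 and -0.01, and their adjusted p ranged from 0.302 to 0.946 from limma.

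Assembly factors that carry another symbol were looked up from a written list. *Ndufaf8*, the partner of *Ndufaf5*, is listed in the files under its older name 1810043H04Rik and so falls outside the naming rule. It had 84.0 and 77.6 FPKM in WT against 97.1 and 75.3 in KO, with overlapping groups. With it, 12 genes of the list had values and all were tested. None was higher and 1 was lower at an adjusted p under 0.05, beside 6.85% and 5.6% of all tested features, and their median log2 difference was -0.12, beside -0.02 over all tested features. The gene that fell was *Acad9*, an enzyme of the acyl-CoA dehydrogenase family that also serves in the MCIA complex. It had 22.4 and 23.4 FPKM in WT against 15.9 and 15.98 in KO. Both KO libraries were lower than both WT libraries by more than the replicates differed, a log2 difference of -0.52 (standard error 0.08, adjusted p = 0.0155 from limma). The next 5 genes did not pass and were chosen after their values were seen. *Ecsit*, another MCIA protein, is merged with *Zfp653* in the files, and that feature had 40.6 and 42.7 FPKM in WT against 37.1 and 34.2 in KO, a log2 difference of -0.22 that did not pass (adjusted p = 0.138). *Tmem126b*, also of MCIA, had 9.59 and 11.2 FPKM in WT against 9.57 and 9.09 in KO and did not pass either (adjusted p = 0.419). In these features both KO libraries lay below both WT libraries. *Tmem186*, a further MCIA gene, had 11.4 and 11.2 FPKM in WT against 12.5 and 10.7 in KO, with overlapping groups (log2 difference 0.04). *Lyrm2*, an LYR-motif protein, had 9.38 and 9.51 FPKM in WT against 7.48 and 8.25 in KO, with both KO libraries lower (log2 difference -0.26, adjusted p = 0.150). *Timmdc1*, which helps to build the proximal membrane arm, is merged with *Poglut1*, and that feature had 26.6 and 28.4 FPKM in WT against 30.3 and 32.6 in KO, with both KO libraries higher (log2 difference 0.19, adjusted p = 0.193). The subunits encoded by mitochondrial DNA, *Ndufb1* and *Coa1* were not analysed here.

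**Figure D3:**
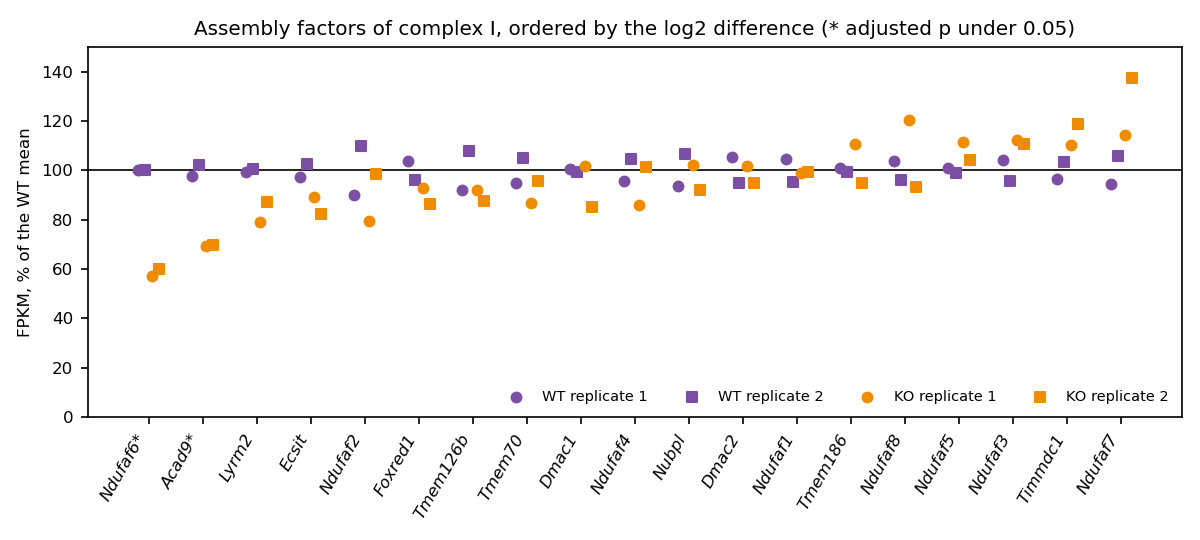
FPKM of 19 assembly factors of complex I in each library, as a percentage of the gene's WT mean, ordered by the log2 difference. The starred genes *Ndufaf6* and *Acad9* passed an adjusted p of 0.05, and their KO points lie apart from their WT points at the left. *Ndufaf7* stands at the far right, where its KO replicate 2 is the highest point, and its adjusted p was 0.157.

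The 7 core subunits encoded in the nucleus differed little between genotypes. Their log2 differences ran from -0.08 to 0.13, none passed, and their median of 0.05 equalled that of the 29 accessory subunits. *Ndufv1*, which binds NADH and the flavin that accepts its electrons, had 103 and 96.7 FPKM in WT against 109.7 and 98.2 in KO. *Ndufv2*, its iron-sulphur partner, had 69.1 and 80.7 FPKM in WT against 67.8 and 73.8 in KO. *Ndufs1*, the largest subunit of the N module, had 62.2 and 67.4 FPKM in WT against 65.0 and 72.5 in KO. In each of these 3 genes of the N module the groups overlapped. In the Q module, *Ndufs3* had 91.8 and 89.7 FPKM in WT against 102 and 96.7 in KO. Both KO values exceeded both WT values, by a log2 difference of 0.13 (95% interval -0.05 to 0.31). *Ndufs7*, which holds the last iron-sulphur cluster before ubiquinone, had 189.6 and 173 FPKM in WT against 196 and 159.9 in KO, with the KO replicates further apart than the groups. *Ndufs8*, which carries a pair of iron-sulphur clusters, had 72.9 and 69.4 FPKM in WT against 68.3 and 71.2 in KO, again with overlapping groups. The files give 9 of the 45 genes the same coordinates as neighbouring features, so how reads were shared among them is uncertain. They include *Ndufs1* and *Ndufs7* of the core, the accessory genes *Ndufa2*, *Ndufa7*, *Ndufa13*, *Ndufb11* and *Ndufs6*, and *Ndufa4l2*. Among the 36 tested genes with coordinates of their own, 1 was lower and none was higher, beside 5.6% and 6.85% of all tested features.

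Among the accessory subunits of the matrix arm, *Ndufa12* was the one furthest below WT. It encodes the N module subunit that takes the place of NDUFAF2 at the end of assembly. It had 283 and 285 FPKM in WT against 242 and 243 in KO. The replicates were close, and both KO libraries lay below both WT libraries. The log2 difference was -0.23 with a 95% interval of -0.40 to -0.06, and it missed the threshold (adjusted p = 0.0864 from limma). It was -0.10 after quantile normalization (adjusted p = 0.429 from limma). After scaling each library to its features with a symbol it was -0.16 (adjusted p = 0.175 from limma). *Ndufa2*, on chromosome 18 and with a fold like that of thioredoxin, had 163 and 165 FPKM in WT against 186 and 185 in KO. Here both KO values exceeded both WT values, with a log2 difference of 0.18 (95% interval 0.01 to 0.35, adjusted p = 0.147). *Ndufv3*, at the tip of the N module, had 111 and 137 FPKM in WT against 155 and 137 in KO. KO replicate 2 lay just above WT replicate 2 and far above WT replicate 1, and the log2 difference of 0.24 did not pass (adjusted p = 0.254 from limma). Its adjusted p was 0.0397 without WT replicate 2 and 0.744 without WT replicate 1, where the log2 difference was 0.09. The other N module genes, *Ndufa6*, *Ndufa7*, *Ndufs4* and *Ndufs6*, had log2 differences from -0.01 to 0.04 and overlapping groups. In the Q module, *Ndufa5* had 305 and 318 FPKM in WT against 294 and 266 in KO, with both KO libraries lower (log2 difference -0.15, adjusted p = 0.279). *Ndufa9*, near the ubiquinone site, differed by -0.03, with both KO libraries slightly lower.

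Most genes of the membrane arm had higher values in KO, but none passed in the fit without a replicate block. With that block, 3 proximal and 2 distal genes were higher at an adjusted p under 0.05, beside 13.9% of all tested features. The 9 proximal genes had a median log2 difference of 0.14 and the 10 distal genes 0.13, with 7 and 9 of them above 0, beside 46.8% of all tested features. Both KO values exceeded both WT values in 4 proximal and 6 distal genes, and in none did both lie under them, beside 27% and 31.7% of all tested features. In the proximal arm, *Ndufa13*, also known as GRIM-19, had 65.2 and 57.2 FPKM in WT against 78.6 and 67.7 in KO. The difference of 0.26 (95% interval -0.01 to 0.52, adjusted p = 0.183 from limma) was the highest of the subunits. *Ndufa1*, an X-linked subunit that binds early to the membrane arm, had 173 and 152 FPKM in WT against 202 and 177 in KO and a log2 difference of 0.22 (adjusted p = 0.223). *Ndufa10*, related to the nucleoside kinases, had 72.6 and 83.3 FPKM in WT against 86.7 and 91.4 in KO and a log2 difference of 0.19 (adjusted p = 0.222). In these 3 genes KO replicates lay above WT replicates without overlap. *Ndufs5* did likewise, with a log2 difference of 0.14, whereas the groups overlapped in *Ndufa3*, *Ndufa8*, *Ndufa11*, *Ndufc1* and *Ndufc2*, at -0.10 to 0.20.

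In the distal arm, the difference was highest for *Ndufb5*, at 88.2 and 94.2 FPKM in WT against 102 and 110.3 in KO. The log2 difference was 0.22 (95% interval 0.02 to 0.41, adjusted p = 0.145 from limma). *Ndufb9*, an LYR-motif protein that docks the acyl carrier, had 172 and 162 FPKM in WT against 186 and 182 in KO and a log2 difference of 0.14 (adjusted p = 0.248). *Ndufb2*, *Ndufb6*, *Ndufb7* and *Ndufb10* also had both KO libraries above both WT libraries, with log2 differences of 0.12 to 0.16. *Ndufb3*, *Ndufb4*, *Ndufb8* and the X-linked *Ndufb11* lay between -0.01 and 0.01 with overlapping groups. *Ndufab1*, the mitochondrial acyl carrier protein that sits in complex I in more than 1 place, had a log2 difference of 0.05 and overlapping groups. *Ndufb4*, *Ndufa11*, *Ndufs6* and *Ndufab1* have close copies or pseudogenes elsewhere in the genome, so the share of their reads is uncertain.

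Summed over genes, the N and Q modules, the membrane arms and the assembly factors differed by at most 8.73% between the genotype means of the deposited FPKM, and by at most 14.3% once each library was scaled to its features with a symbol. The 36 subunits summed to 6472 and 6654 FPKM in WT against 7074 and 6583 in KO. The means were 6563 ± 129 for WT and 6829 ± 347 for KO (SD, n = 2), a log2 ratio of 0.06, and the groups overlapped (two-sided exact permutation test, p = 0.667). With the scaling to features with a symbol, KO was higher by 9.44% and the groups did not overlap. The median log2 difference of the 36 subunits was 0.05. It was 0.12 after quantile normalization, where the median of all tested features was -0.01. It was also 0.12 after scaling each library to its features with a symbol, where the median of all tested features was 0.05. The distal membrane arm summed to 2160.1 and 2255 FPKM in WT against 2427 and 2272 in KO, and the proximal arm to 1519.8 and 1492 FPKM in WT against 1738 and 1537 in KO. In both parts each KO library was above each WT library, but the means differed by less than the KO replicates did, and p = 0.333 is the smallest value that the exact permutation test can give here. The largest part of the proximal sum was *Ndufa3*, whose groups overlapped, at 588 and 528 FPKM in WT against 729 and 561 in KO. The N module summed to 1784 and 1888 FPKM in WT against 1887 and 1811 in KO and the Q module to 889 and 876 FPKM in WT against 892 and 823 in KO, with overlapping groups. With the scaling to features with a symbol, both KO sums of the N module exceeded both WT sums, by 5.97% between the means, while the Q module still overlapped. The 7 assembly factors summed to 119.9 and 129.8 FPKM in WT against 109.9 and 124 in KO, or 1.85% and 1.95% of the subunit sum in WT and 1.55% and 1.88% of it in KO. These groups overlapped too. The fall of *Ndufaf6* was smaller in FPKM than the difference between replicates of *Ndufaf2*.

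**Figure D4:**
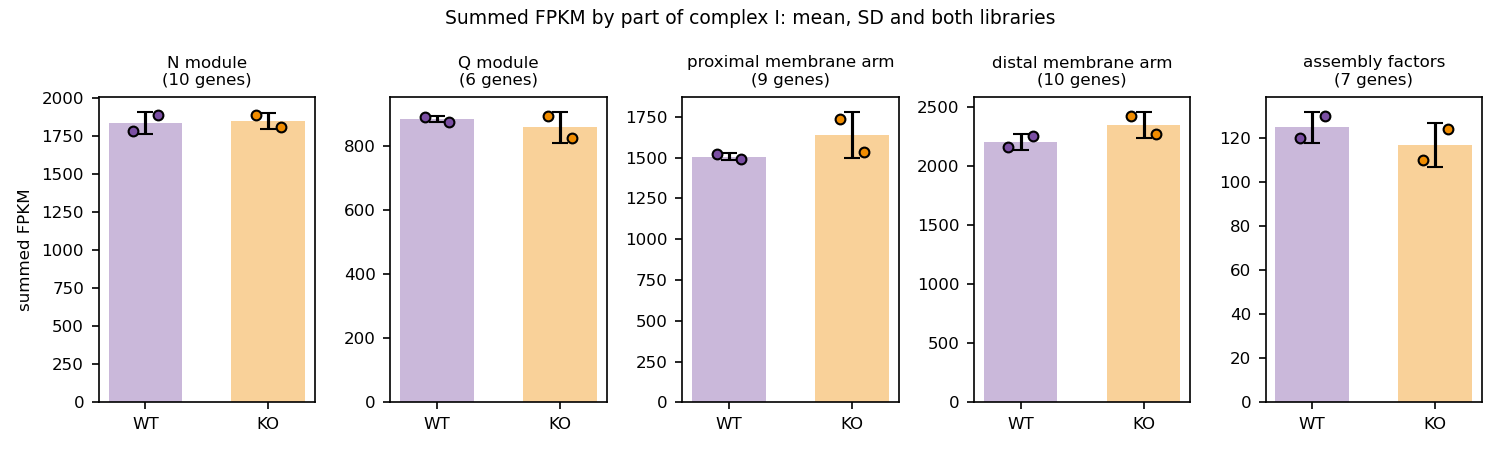
Summed FPKM of the genes in each part of complex I, with bars for the mean, error bars for the SD and points for the libraries of each genotype (n = 2). In these deposited FPKM, the 2 panels of the membrane arm show KO points above the WT points, and the groups overlap in the other panels. Each panel has its own axis, which starts at 0.

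*Ndufa4* was the most abundant gene of the set in WT, with 643 and 650.2 FPKM in WT against 639 and 583 in KO. In KO its mean of 611 FPKM was below the 645 FPKM of *Ndufa3*. *Ndufa4* was named as a complex I subunit and is now placed in complex IV. Both KO libraries lay below both WT libraries, and the log2 difference was -0.08 (95% interval -0.29 to 0.12). *Ndufa4l2*, a paralog known to be induced in hypoxia, had 0.397 and 0.140 FPKM in WT against 0.278 and 0.318 in KO. These values are close to 0 in both genotypes, and no ratio is given for them.

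BMAL1 binds DNA together with CLOCK at E-boxes, whose best-known form reads CACGTG on both strands. The promoter windows from RefSeq (GRCm38.p6), which run from 250 bases before a gene's start to 50 after it, were searched for these letters. Windows were found for 39 of the 45 genes, and 2 of these, 5.13%, held the E-box, beside 8.09% of the 27025 genes with a window. *Ndufa2*, *Ndufa4l2*, *Ndufaf6*, *Ndufb9* and *Ndufs1* were among those without a window. The E-box of *Ndufa7* begins 72 bases before one annotated start and 145 before another, and that of *Ndufv1* begins 169 bases before the start. The sites are shown because the E-box is the sequence that BMAL1 with CLOCK recognizes, with the E-box in capitals and the flanks in lower case, 5′ to 3′ on the strand of the gene (*Ndufa7* at chr17:33824489-33824516, plus strand; *Ndufv1* at chr19:4012908-4012935, minus strand).
Ndufa7: cggagaggagtCACGTGagcaggggatg
Ndufv1: gcagagggcgaCACGTGagcctggttta
Neither gene passed the test. *Ndufa7*, an accessory subunit of the N module, had 407 and 417 FPKM in WT against 443 and 391 in KO, a log2 difference of 0.02 (95% interval -0.20 to 0.23). The files merge *Ndufa7* with *Kank3* into 1 feature that has the same coordinates as *Rps28*, so its value is uncertain. For *Ndufv1*, whose values are given above, the log2 difference was 0.06 (95% interval -0.15 to 0.27). A match is a description of the sequence and does not show binding.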

How the data were processed

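RNA of 2 WT and 2 *Bmal1* KO libraries was depleted of ribosomal RNA by the authors, who aligned the reads to GRCm38 (TopHat2 2.1.1 with Bowtie2 2.3.0). Cufflinks 2.2.1 then gave FPKM for each feature. These FPKM are the deposited values, and the annotation release is not given in the sources used here. FPKM of short transcripts depends on the fragment lengths of the library, and most complex I transcripts are short. Files start coordinates at 0, so 1 was added. Gene positions come from GENCODE M21. The tests ran in limma 3.58.1 under R 4.3.3 on log2(FPKM + 0.1), with a variance trend and without a replicate block, for 12990 of 19645 features; the other 6655 had a mean under 0.5. The script was tested on simulated data. Tables and exact tests were made with pandas 2.3.3, scipy 1.17.1 and numpy 2.4.6 in Python 3.11.15, and figures with matplotlib 3.10.9. Samples were grouped by their labels. The alternatives were 10 other settings and leaving out each library in turn. The genes, lists and classes were chosen with earlier results of these data known. Values in each library are given for the genes that passed, the 5 largest differences in each direction, the core subunits, the assembly factors, the 3 highest and 3 lowest genes, and genes whose call changed under an alternative. The values of 1 gene are not reported here singly, although it stays in the counts and sums. No read-level analysis was made.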

Additional observations from a re-analysis of the deposited data

How the results depend on the processing

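*Ndufaf6* kept its direction and its adjusted p under 0.05 from limma under all 14 alternatives, at 0.000607 to 0.0244, with log2 differences of -0.80 to -0.69, and so did *Acad9*, at 0.00391 to 0.0428 and -0.55 to -0.45. The number of subunits that were higher in KO at that threshold went from 0 to 1 (*Ndufa2*, adjusted p = 0.0459) when each library was scaled to its features with a symbol, where 11.8% of all features tested were higher, and ran from 0 to 1 when a library was left out. The 1 came without WT replicate 2 (*Ndufv3*), where the lone WT library is assumed to vary like the KO libraries. The replicate numbers are not said to mark a shared culture or day, and with 2 pairs they cannot be shown to pair the libraries. The differences between replicates 1 and 2 in WT and in KO correlated across all tested features with r = 0.0712 (Pearson) and rho = 0.387 (Spearman), and across the 44 *Nduf* genes with 0.492 and 0.481. With the replicate block, 7 subunits (*Ndufa1*, *Ndufa2*, *Ndufa10*, *Ndufa13*, *Ndufb5*, *Ndufb9* and *Ndufs3*) and 1 assembly factor (*Ndufaf7*) were higher at an adjusted p under 0.05, and 1 subunit (*Ndufa12*) and 2 assembly factors (*Ndufaf2* and *Ndufaf6*) were lower, beside 13.9% and 17.3% of all tested features. Of the 12 assembly factors with another symbol, 1 (*Timmdc1*, merged with *Poglut1*) was then higher and 3 (*Acad9*, *Ecsit* merged with *Zfp653*, and *Lyrm2*) were lower. The median log2 difference of the subunits was 0.05, went to 0.12 with quantile normalization and to 0.12 with scaling to features with a symbol, and ran from 0.0246 to 0.108 when a library was left out, highest without KO replicate 2. The log2 ratio of the subunit sums went from 0.06 to 0.14 and 0.13 under the same alternatives, and ran from 0.0045 without KO replicate 1 to 0.108 without KO replicate 2. Of the 44 genes, 29 were above 0, and 36 under either of these scalings. The median over all tested features was -0.02, and went to -0.01 with quantile normalization and to 0.05 with scaling to features with a symbol. The median of the assembly factors, near 0, ran from -0.03 to 0.06 over the alternatives and so had no steady sign, and the log2 ratio of their sums ran from -0.18 to -0.01. Without read numbers, nothing can be said of differences below the spread of 2 libraries.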

Other observations

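Other nuclear genes of mitochondrial function are given beside complex I as values, with no test between the sets, and they were chosen by symbol prefix after the complex I values were seen. Of 45 tested nuclear subunits of complexes II to V, 1 was higher and 1 lower in KO at an adjusted p under 0.05 from limma, beside 6.85% and 5.6% of all tested features, and their median log2 difference was 0.02. Of 77 mitochondrial ribosomal protein genes, 3 were higher and 3 lower, below those shares in both directions, their median was -0.10, and both KO values were under both WT values in 42 of them and above in 10, beside 31.7% and 27% of all tested features. For the 44 *Nduf* genes these numbers were 5 below and 17 above.

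Across the 44 tested *Nduf* genes, which share the same libraries, the WT level had a Spearman's rho of -0.51 with the median length of the annotated transcripts. The log2 difference between genotypes had a rho of -0.06 with that length and of -0.12 with the WT level.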
